A study of Mus musculus and Mus musculus
Oryx dammah with 30 samples.

Results

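The genes described here are 40 myoblast and mesenchymal genes that C2C12 cells, an immortalized mouse myoblast line, are known to use or that sit in the same families, followed after nuclear transfer (NT) into mouse embryos. The 40 were chosen by name, not by a measured value, though with earlier results of these data known. They come from 53023 mouse genes listed in the four-cell and replication tables and 55364 in the two-cell table. All 40 were found in each. They fall into 5 roles, which are 9 myogenic regulators, 4 muscle structural and surface genes, 8 actin cytoskeleton genes, 11 matrix and secreted genes and 8 mesenchymal cell genes. In each embryo a pair of C2C12 cells, from a line of C3H origin, was fused into a BDF1 embryo (C57BL/6 oocyte, DBA/2 sperm) that had been arrested with 0.1 µg/ml demecolcine, a microtubule blocker shared by every group here, and the embryos were kept for 24 h before RNA sequencing. Four-cell NT embryos were made from 46 h after insemination (hpi) and pooled by 3, with 3 pools given α-amanitin, an RNA polymerase II blocker, written α-amanitin (+), and 3 without it, written α-amanitin (−). Two-cell NT embryos were made at 21 or 30 hpi and pooled by 5, with 6 pools in each arm. Another set of four-cell NT embryos, kept without α-amanitin, held groups labelled D and DR with 3 pools of 4 embryos each, and the study made such transfers either before or after the embryo's period of DNA replication, while the labels used here do not tie the letters D and DR to these times. Every pool mixes embryo and donor RNA, no library of C2C12 cells alone was analysed here, and the FPKM tables do not separate the strains, so RNA from the donor genome and RNA from the embryo cannot be told apart, and neither can fewer transcripts per embryo and fewer surviving donor genomes.

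As background, skeletal muscle identity rests on a small set of transcription factors. Myod1 and Myf5 commit a cell to the myoblast fate, Myog and Myf6 drive it into differentiation, Pax3 and Pax7 mark the precursors, and the Mef2 factors act with them on muscle promoters. Proliferating C2C12 myoblasts also resemble fibroblasts: they carry an actin cytoskeleton with tropomyosins and calponins, lay down collagen and fibronectin matrix, and hold abundant short mRNAs for S100 calcium-binding proteins, the lectin galectin-1 (Lgals1) and annexins.

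The libraries differed in depth and in spike-in content. The four-cell values resolved into whole reads (100% of values within 0.01 of a read), 1136771 to 3101002 per pool, while the two-cell and replication values held fractional counts and gave approximate totals of 4364337 to 10060476 and 2602784 to 19170631 reads. Synthetic ERCC spike-in RNAs were listed in the two-cell and replication tables and not in the four-cell table, so the first pair were scaled to the spike-ins before testing and the four-cell FPKM were taken as deposited. The summed FPKM of 8 oocyte and embryo markers was 3373 to 16050 in the four-cell, D and DR pools and 6727 to 12300 in 9 two-cell pools, and it was lower, at 977.3 to 1517, in the 3 two-cell pools named RAm. Of 12 cumulus and granulosa cell markers, at most 2 reached 1 FPKM in any pool, and their summed FPKM stayed between 0.1454 and 31.64. The C2C12 label could be checked only through the member genes themselves: Myod1, the defining regulator of the line, was above 0 in 5 of 6 four-cell pools and all 6 D and DR pools, and in 2 of 12 two-cell pools.

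In the D, DR and two-cell pools most of the members' signal came from 3 short, abundant transcripts, and in 4 of 6 four-cell pools less than 50% did. Lgals1, S100a4 and S100a6 together held 27.3% to 85.9% of the members' summed FPKM in the four-cell pools (27.3% to 46% in all but S8 and S7, with Acta2 the first member in S16 and S18), 50.5% to 77.9% in the D and DR pools and 66.1% to 87.5% in the two-cell pools. The sum itself was unequal between pools of 1 group. In four-cell α-amanitin (+) pools it was 247.84, 728.92 and 3677.5 FPKM, and in α-amanitin (−) pools 514.56, 389.04 and 1077.6 FPKM, in the order S16, S18 and S8, then S15, S17 and S7 (names of the table's columns), so S8 stood above the rest. The two-cell columns come under 2 pairs of names, Am with NT and RAm with R, where Am and RAm received α-amanitin; which pair is the early and which the late transfer is not given in the sources used here. As deposited, the sums were 4541.9 to 5256.6 FPKM in Am, 1631.6 to 6418.9 in NT, 1730.2 to 2792.3 in RAm and 302.5 to 848.16 in R. Scaled to the spike-ins they were 2961.6 to 4359.2 in Am, 2047.8 to 6063.5 in NT, 831.92 to 1726.1 in RAm and 673.19 to 1588.8 in R. On that scale RAm and R overlapped. Library NT3 was highest of all 12 two-cell pools.

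**Figure D1:**
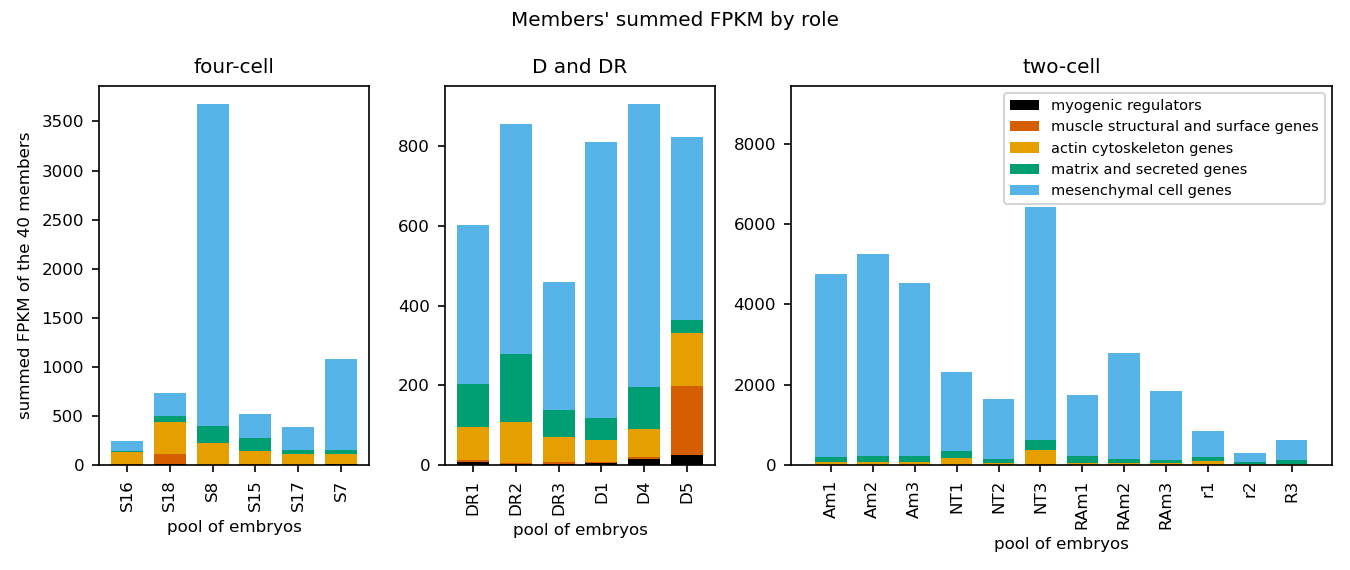
Summed FPKM of the 40 members in each pool (vertical axis), stacked by role, for the four-cell pools (S16, S18 and S8 with α-amanitin, S15, S17 and S7 without), the D and DR pools, and the two-cell pools (Am and RAm with α-amanitin, NT and R without). The mesenchymal cell genes fill most of each two-cell bar, and S8 and NT3 are the tallest bars of their panels. Values are FPKM as deposited.

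The four-cell comparison asked which transcripts depend on transcription in the 24 h after transfer. Cyr61, a secreted matricellular protein also called Ccn1, was the only member called higher without α-amanitin, at 9.05-fold on the FPKM + 1 scale. No member was called lower (1 member, Acta2, had an unadjusted limma p below 0.05 in that direction). Cyr61 entered testing only through the α-amanitin (−) pools, where it is high, so its call carries no independent weight. A gene was called when limma gave an adjusted p below 0.05 over all genes tested and a change of at least 4-fold. Of 9884 genes tested, 6.2% were called higher and 0.364% lower, so 1 of 19 members tested is close to the share among all genes. At the adjusted p alone the shares of all genes were 11.1% higher and 1.13% lower, and the members' counts were again 1 and 0. The median log2 change was −0.20 over the 19 members and 0.37 over all genes tested. A further 17 members were above 0 in some pool but below the filter of 1 FPKM in 3 libraries, and Col1a1, Mef2c, Myf6 and Pax7 were at 0 in all 6.

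Among the matrix and secreted genes, Cyr61 (chr3:145646976-145649981, mm10, minus strand) was at 23.48, 14.08 and 8.015 FPKM in the α-amanitin (−) libraries S15, S17 and S7, from 108, 52 and 35 reads. In the α-amanitin (+) libraries it was at 0 in S16 and S8 and at 3.486 FPKM, 8 reads, in S18. The 2 groups did not overlap, and Cyr61 passed the filter on low values through the untreated pools, where it is high. The log2 change was 3.18 ± 0.67 (SE, n = 3 and 3, limma adjusted p = 0.0218). Without S15, S17, S7 or S8 the Cyr61 change was 2.82, 3.17, 3.54 or 2.82 and the limma adjusted p rose to 0.0964, 0.0878, 0.0652 or 0.0528, and over all genes the number called higher fell from 613 to 78, 122, 55 or 447. With limma-voom on the recovered reads Cyr61 was called as well (5.29 ± 1.30, adjusted p = 0.0302), and with a pseudocount of 0.1 the change was 5.40 (adjusted p = 0.0608), so its fold is not well fixed. Ctgf (Ccn2), its close relative, held 10, 3 and 14 reads without α-amanitin and none in the 3 treated libraries, which is at least 2.28-fold higher against a floor of 3 reads per library; it lay below the filter and was not tested, and 23.2% of its exonic bases are shared with a gene on the other strand that unstranded counting cannot separate. Sparc, a collagen-binding matrix protein, ranged from 3.746 to 41.7 FPKM with α-amanitin and from 8.574 to 13.92 FPKM without. Timp1, a metalloproteinase inhibitor, ranged from 9.442 to 127.6 FPKM and from 12.92 to 98.85 FPKM. Neither passed the test (limma adjusted p = 0.559 and 0.912). The fibrillar collagens and fibronectin were low: Col1a2, Col3a1 and Fn1 did not exceed 1.411 FPKM in any of the 6 libraries, and Col5a1, Thbs1 and Postn did not exceed 0.2897 FPKM.

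Of the myogenic regulators, only Myod1 passed the filter. It was at 0.1733, 7.09 and 0 FPKM in S16, S18 and S8, and at 2.358, 0.5873 and 3.23 FPKM in S15, S17 and S7, which overlap (log2 change 0.42 ± 0.79, SE, n = 3 and 3, limma adjusted p = 0.765). Myog was present only with α-amanitin, with 8 reads in S16 and 8 in S18, and none in S8 or in the 3 α-amanitin (−) libraries. The groups thus overlapped at 0, so no bound on a difference is given, and Myog was not tested. Myf5 had 4 reads in S16 and none elsewhere, too few for a bound above 1. Mef2a and Mef2d were higher in range without α-amanitin, Mef2a at 0.4095 to 0.568 against 0 to 0.2144 FPKM and Mef2d at 0.6392 to 1.159 against 0 to 0.4849 FPKM, both under the filter. Pax3 reached 0.08833 FPKM in a single library.

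The muscle structural and cytoskeletal members did not pass the test in either direction. Acta1, the skeletal muscle α-actin, was at 95.07 FPKM in S18, the library that was also highest in Myod1 and Myog, and at no more than 1.714 FPKM in the other 5 (limma adjusted p = 0.535). Acta2, the smooth muscle α-actin that cultured mesenchymal cells use, was at 99.95, 276.1 and 76.33 FPKM with α-amanitin and 84.28, 36.82 and 13.76 FPKM without. The groups overlapped in 1 pair of libraries, and the log2 change of −1.84 ± 0.66 (SE, n = 3 and 3) had a limma adjusted p of 0.105. Myl9, a regulatory myosin light chain, changed by −1.36 ± 0.71 (limma adjusted p = 0.247), and without library S16 it would have been called lower (−2.14, limma adjusted p = 0.0383), as Sparc would have passed the adjusted p alone (−1.69, limma adjusted p = 0.0293). Tpm1, an actin-binding tropomyosin, went the other way, at 7.445 to 16.52 FPKM without and 2.934 to 9.088 FPKM with α-amanitin (1.04 ± 0.48, limma adjusted p = 0.194). Des, Cnn2, Tpm2 and Tagln2 had limma adjusted p values of 0.195, 0.291, 0.473 and 0.515. Leaving out S8 brought Tagln2 to 1.60 with an adjusted p of 0.0328. Actc1 and Cnn1 had 8 reads each in a single library, S16 and S8 respectively, and Cdh15, a myoblast cadherin, had 1 read in S16. Tagln stayed at 0 in 5 of 6 libraries, and 62.4% of its exonic bases overlap another gene, so its counts are uncertain.

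Among the mesenchymal cell genes the spread within a group exceeded the difference between groups. S100a4 was at 2.209, 10.54 and 1031 FPKM with α-amanitin and 10.52, 7.486 and 120.3 FPKM without. Lgals1 was at 69.33, 153.9 and 1832 FPKM with and 114.7, 134.6 and 542.7 FPKM without. In both genes S8 was the highest library and S7 the second, and S100a6 had the same order, with 294.7 and 146.5 FPKM in those libraries. The log2 changes were −0.56 ± 1.91 for S100a4, −0.41 ± 1.09 for Lgals1 and 0.35 ± 1.08 for S100a6 (limma adjusted p = 0.873, 0.833 and 0.859). Of the S100a4 exonic bases, 51.7% are shared with another gene model on the same strand, so its value depends on how shared reads were assigned. Anxa2, a phospholipid-binding annexin, was at 41.76 to 91.46 FPKM without and 9.68 to 49.76 FPKM with α-amanitin (1.52 ± 0.59, limma adjusted p = 0.126), and without S8 the change was 2.21 with an adjusted p of 0.0192. Vim, the mesenchymal intermediate filament, was at 2.145 to 5.839 FPKM in all 6 libraries, with a change of −0.06 ± 0.48 (95% interval −1.14 to 1.02). Anxa1 and Cav1 had limma adjusted p values of 0.91 and 0.914. Thy1 was above 0 in 1 library, at 0.3088 FPKM.

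**Figure D2:**
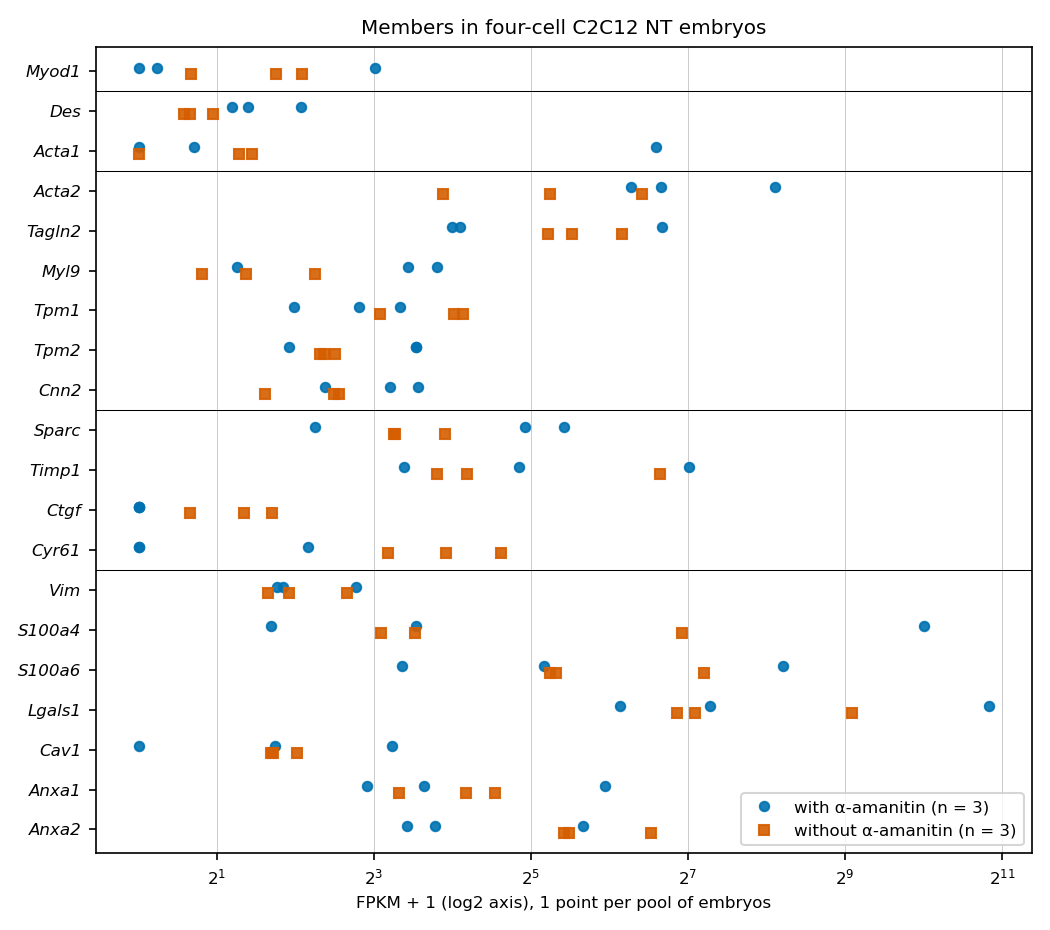
FPKM + 1 on a log2 axis (horizontal) of the 19 tested members and Ctgf in four-cell NT embryos, with 1 point per pool, circles with α-amanitin and squares without. Cyr61 and Ctgf show 3 squares to the right of all 3 circles, while S100a4, S100a6 and Lgals1 show 1 circle, library S8, far to the right.

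In the wider myoblast list of 30 genes, 10 were tested and 2 were called higher without α-amanitin, against 6.2% of all genes tested, and in the wider mesenchymal list of 43 genes, 14 were tested and none was called in either direction by limma, with 1 at an unadjusted p below 0.05. Id3, an inhibitor of myogenic helix-loop-helix factors that many other cells also use, was at 119.1, 466 and 128.8 FPKM without and 36.37, 24.07 and 5.974 FPKM with α-amanitin (3.37 ± 0.69, limma adjusted p = 0.0197). Msc, the helix-loop-helix factor musculin, was at 4.137, 3.434 and 3.995 FPKM without α-amanitin and at 0 in the 3 treated libraries. That is at least 5.36-fold higher against the 3-read floor. Msc passed the filter only through the group where it is high, so its call, 1 of the 2, carries no independent weight.

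In two-cell embryos, the same question was asked of earlier transfers. Col3a1 and Fn1 were called higher without α-amanitin, at 16.5-fold and 14.9-fold, and both encode matrix proteins. Cyr61 was also called, at 4.06-fold. It entered testing on low values only through the untreated pools, where it is high, so its call carries no independent weight. The size depends on the scaling: it was 8.47-fold for Col3a1, 6.82-fold for Fn1 and 2.85-fold for Cyr61 on the FPKM as deposited, and 5.62-fold, 4.16-fold and 2.41-fold with the median of ratios over genes. The abundant mesenchymal transcripts Lgals1, S100a4 and S100a6 changed by between −0.30 and −0.04 on the log2 scale and did not pass the test. With the median of ratios over genes as the scaling all 3 were instead called lower (Lgals1 −2.28, S100a4 −2.53 and S100a6 −2.25, limma adjusted p = 0.0201, 0.00823 and 0.0129). The main values are scaled to 47 spike-ins found in every library, which took 5.821% to 18.48% of the signal, and on that scale the median of all 17196 genes tested rose by 1.49. Of all genes tested 34.2% were called higher and 0.163% lower, so 3 of 25 members called higher is below the background share. At an adjusted p below 0.05 with no fold limit, 11 members were higher against a background of 71.4% and 1 was lower against 1.63%. On the FPKM as deposited the median of all genes was 0.67, 11.1% of genes were called higher and 1.58% lower, and Col3a1 and Fn1 were called. There, 4 members were higher at the adjusted p against 38.9% of genes and 2 were lower against 8.51%. In the NT and Am columns alone 3 members were called higher against 9.7% of genes and none lower against 0.175%, and at the adjusted p 7 were higher against 31.5% and none lower against 0.77%. In the R and RAm columns alone 2 members were called higher against 62.3% of genes and none lower against 1.16%, and at the adjusted p 8 were higher against 80.5% and 2 lower against 5.45%.

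Of the 8 matrix and secreted genes tested, 3 were called higher, against 34.2% of all genes. At the adjusted p alone 5 were higher, against 71.4%. Both counts are near the shares among all genes. Col3a1, a fibrillar collagen of loose connective tissue, was at 17.54, 12.37 and 45.26 FPKM in the NT pools and 10.27, 6.683 and 24.43 FPKM in the R pools. With α-amanitin it was at 1.557, 0.8301 and 1.705 FPKM in Am and 0.6146, 0.6693 and 1.006 FPKM in RAm. Each of the 6 untreated pools lay above each of the 6 treated pools, and after spike-in scaling the log2 change of Col3a1 was 4.04 ± 0.39 (SE, n = 6 and 6, limma adjusted p = 5.34e-06). Fn1, the adhesive matrix protein fibronectin, did not overlap either: it was at 5.74 to 49.46 FPKM without and 1.884 to 2.994 FPKM with α-amanitin, a log2 change of 3.90 ± 0.43 (limma adjusted p = 9.03e-06). Within the NT and Am columns alone the changes were 3.90 for Col3a1 and 3.98 for Fn1, and within the R and RAm columns 4.16 and 3.803, and the difference between the pairs of columns did not pass the test for either gene (0.37 ± 0.64 and −0.08 ± 0.69, SE, interaction limma adjusted p = 0.651 and 0.93).

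Cyr61 was at 4.754, 0.2358 and 1.959 FPKM in NT and 7.617, 0.4562 and 3.16 FPKM in R. With α-amanitin it was at 1.062 FPKM in Am2 and at 0 in the other 5 treated pools. Cyr61 thus passed the filter on low values through the untreated pools, and Am2 lay above NT2 and r2 in FPKM, and above NT2 alone after scaling, and the log2 change was 2.02 ± 0.50 (limma adjusted p = 0.0019). It was 1.42 with an adjusted p of 0.0931 within the NT and Am columns, and 8 single libraries, left out in turn, each took it just under 4-fold, down to 1.71 without r1. Col1a2 is a chain of type I collagen, and Col5a1 a chain of the type V collagen found in the same fibrils. They passed the adjusted p alone, at 1.56 ± 0.41 and 1.06 ± 0.28 (limma adjusted p = 0.00303 and 0.00324). On the FPKM as deposited neither did (0.0783 and 0.065). Col5a1 met the filter on low values only with the untreated pools, where it is high, so its test carries no independent weight. Within the NT and Am columns Col1a2 was called (2.11, adjusted p = 0.0103), where Cyr61 was not. Sparc was at 9.618 to 51.04 FPKM without and 18.86 to 52.24 FPKM with α-amanitin, and Timp1 at 19.7 to 98.3 and 47.86 to 134.9 FPKM. Their scaled changes of 1.12 ± 0.51 and 0.39 ± 0.48 did not pass (limma adjusted p = 0.0539 and 0.477). With the pair of column names as a term Sparc passed (adjusted p = 0.0273), as it did within the R and RAm columns (1.45, adjusted p = 0.00977). Both scaled values turn negative on the FPKM as deposited, at −0.23 and −0.998. Postn, the matricellular protein periostin, was at 4.865, 3.228 and 2.795 FPKM in the 3 RAm pools and at no more than 0.6407 FPKM in the other 9. These 3 RAm pools are the ones with the low embryo marker sum, and the part of that difference in the Postn values was not tested. Postn passed the filter on low values only through these RAm pools, so its levels are given as a description. Ctgf was above 0 in 5 of 12 pools, with 11.05 FPKM in r1, and was not tested, nor were Thbs1 and Col1a1, which reached 2.888 and 0.312 FPKM.

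As examples of called members (Col3a1 and Cyr61) and of members that were not called (Postn and S100a4), the 250 bases upstream of their RefSeq starts are shown (GRCm38.p6, 5′ to 3′ on the gene's strand). The window of Cyr61 lies at chr3:145649986-145650235 on the minus strand, and those of Col3a1, S100a4 and Postn lie on the plus strand at chr1:45311288-45311537, chr3:90603520-90603769 and chr3:54360857-54361106. Capitals mark TATAAA, the TATA motif, and GGAATG, the core letters bound by TEAD factors, each searched on both strands with no overlap between the 2 motifs here; GGAATG appears as CATTCC where it lies on the other strand. No RefSeq promoter entry was matched for Fn1.
Cyr61: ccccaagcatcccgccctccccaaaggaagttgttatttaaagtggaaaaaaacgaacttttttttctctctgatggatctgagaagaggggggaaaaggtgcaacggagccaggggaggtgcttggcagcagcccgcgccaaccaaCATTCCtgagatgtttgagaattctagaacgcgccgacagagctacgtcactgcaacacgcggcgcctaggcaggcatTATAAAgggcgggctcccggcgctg
Col3a1: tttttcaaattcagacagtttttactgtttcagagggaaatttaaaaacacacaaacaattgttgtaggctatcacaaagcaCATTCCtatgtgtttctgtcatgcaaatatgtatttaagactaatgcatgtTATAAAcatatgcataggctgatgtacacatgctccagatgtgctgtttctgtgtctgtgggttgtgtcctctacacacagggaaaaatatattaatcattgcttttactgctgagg
S100a4: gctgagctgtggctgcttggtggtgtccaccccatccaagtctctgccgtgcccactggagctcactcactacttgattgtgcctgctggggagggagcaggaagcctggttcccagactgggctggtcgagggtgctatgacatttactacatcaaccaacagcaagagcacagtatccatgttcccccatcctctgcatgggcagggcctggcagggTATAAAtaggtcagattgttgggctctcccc
Postn: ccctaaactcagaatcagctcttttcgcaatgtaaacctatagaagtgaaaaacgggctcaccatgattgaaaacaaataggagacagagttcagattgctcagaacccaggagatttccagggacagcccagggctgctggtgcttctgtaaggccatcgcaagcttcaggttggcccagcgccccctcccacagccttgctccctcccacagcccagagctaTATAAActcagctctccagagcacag
TATAAA lay in all 4 windows, 25, 117, 31 and 26 bases before the start in that order, and in 12.4% of 32851 RefSeq windows of this length. GGAATG lay in the Cyr61 and Col3a1 windows, 103 and 168 bases before the start, and in 12.6% of the RefSeq windows. Among the 30 members with a promoter entry, 10 held TATAAA and 9 held GGAATG, the other 7 of which (Acta1, Acta2, Anxa1, Mef2c, Tagln2, Timp1 and Tpm1) were not called in either α-amanitin comparison. A match is a description of the letters and was not tested as a site.

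Of the myogenic regulators, Mef2a alone was tested in two-cell embryos. It was at 1.352 to 2.402 FPKM in NT and 1.095 to 1.945 FPKM in R, against 0.616 to 1.059 FPKM in Am and 0.117 to 1.19 FPKM in RAm. Mef2a met the filter on low values only through the untreated pools, where it is high, so its test carries no independent weight. The scaled levels of Mef2a did not overlap between the arms, and the change of 1.37 ± 0.27 (limma adjusted p = 0.000401) was close to the median of all genes. It stayed below an adjusted p of 0.05 on the FPKM as deposited (0.71 ± 0.25, limma adjusted p = 0.0288) and did not with the median of ratios over genes as the scaling (0.36, limma adjusted p = 0.284). Mef2d was at 0.4199 to 1.422 FPKM without and at 0 to 0.2129 FPKM with α-amanitin, below the filter. The lineage-defining factors were near 0: Myod1 reached 0.4542 FPKM in Am3 and 0.2751 FPKM in NT1 and was at 0 elsewhere, and Myog, Myf6 and Pax7 were at 0 in all 12 pools. Myf5 was above 0 in 4 pools, all without α-amanitin, with 4.431 FPKM in NT3. Pax3 did not exceed 0.5919 FPKM, and Mef2c was above 0 in 1 pool, at 0.001515 FPKM.

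None of the muscle structural and actin cytoskeleton genes was called in two-cell embryos by limma, and 4 of the 9 tested were higher at an adjusted p below 0.05 and 1 lower, against 71.4% and 1.63% of all genes. Acta2 was at 83.46, 5.597 and 237.2 FPKM in NT, 35.57, 0.425 and 1.781 FPKM in R, and 8.459 to 22.26 FPKM in the 6 treated pools. The untreated pools thus spanned the treated range on both sides, and the change of 1.30 ± 0.96 did not pass (limma adjusted p = 0.226). Tagln2, an actin-bundling transgelin, was higher at 1.74 ± 0.46 (limma adjusted p = 0.0031). So were Cnn2 (1.54 ± 0.54), Tpm2 (1.27 ± 0.47) and Des (1.16 ± 0.42), with limma adjusted p values of 0.0162, 0.0227 and 0.0209. Des met the filter on low values only through the untreated pools, where it is high, so its test carries no independent weight. On the FPKM as deposited none of these 4 genes passed, and their changes were 0.42, 0.57, 0.15 and 0.72. With the median of ratios over genes Tagln2 (−0.35), Cnn2 (−0.020) and Tpm2 (−0.53) turned in direction, and Des did not. Tpm2 went above an adjusted p of 0.05 without NT1, RAm3 or r1 (limma adjusted p = 0.0622, 0.054 and 0.0545), and Des without NT1 or r1 (0.054 and 0.0535). Cnn1, the smooth muscle calponin, was the only member lower at an adjusted p below 0.05 on the scaled values. It was at 15.43, 4.388 and 14.59 FPKM in RAm, 0.1567 to 2.533 FPKM in Am and 0.0174 to 0.9919 FPKM in the 6 untreated pools. Cnn1 passed the filter on low values only through the treated pools, where it is high, and the RAm pools, its highest, are those with the low embryo marker sum (977.3 to 1517 FPKM against 6727 to 12300); the part of that difference in the Cnn1 values was not tested. Its levels are therefore given as a description, and its place as the 1 member lower supports nothing about the members. Acta1, Tpm1 and Myl9 had limma adjusted p values of 0.0669, 0.0768 and 0.611, and Actc1 and Tagln were not tested. Cdh15 was above 0 in each of the 6 untreated pools, at 0.1266 to 3.65 FPKM, and in 1 treated pool, at 0.8486 FPKM, and lay below the filter.

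The mesenchymal cell genes include the 2 members with the highest FPKM in the two-cell pools, S100a4 and Lgals1, and of the 7 tested Vim alone passed the test. S100a4 was at 1734, 2177 and 1779 FPKM in Am and 263, 741.7 and 360.7 FPKM in RAm, against 367.5, 460 and 1223 FPKM in NT and 160.3, 69.48 and 164.2 FPKM in R. Lgals1 was at 2126, 1989 and 1921 FPKM in Am, 1025, 1364 and 1119 FPKM in RAm, 1273, 755.9 and 3589 FPKM in NT and 354.1, 109.9 and 222 FPKM in R. For both genes the 3 R pools were lowest in FPKM as deposited, and after spike-in scaling R and RAm pools intermixed. After spike-in scaling, the changes were −0.30 ± 0.69 for S100a4 (95% interval −1.76 to 1.15), −0.04 ± 0.60 for Lgals1 (−1.30 to 1.22) and −0.04 ± 0.63 for S100a6 (−1.35 to 1.28). Anxa1 and Anxa2 changed by −0.40 ± 0.87 and −0.58 ± 0.60 (limma adjusted p = 0.684 and 0.391). On the FPKM as deposited the changes of these 5 genes ran from −1.93 to −1.43, and Anxa2 passed (−1.93, limma adjusted p = 0.0147). On either scale all 5 lay below the median of all genes tested. Vim was at 60.98 to 172.3 FPKM in NT and 9.925 to 36.8 FPKM in R, against 49.48 to 66.26 FPKM in Am and 27.56 to 42.17 FPKM in RAm, with a scaled change of 1.46 ± 0.55 (limma adjusted p = 0.025) that went above 0.05 without NT1, NT3, RAm1 or RAm3 (0.0572, 0.0507, 0.0539 and 0.0538) and was 0.10 on the FPKM as deposited. Cav1, the caveolar coat protein, was at 0 to 0.6249 FPKM in RAm and 0.6421 to 13.65 FPKM in the other pools. Its change of 1.16 ± 0.66 did not pass (limma adjusted p = 0.123), and with the pair of column names as a term in the fit it did (adjusted p = 0.0333). Thy1 did not exceed 0.5841 FPKM.

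**Figure D3:**
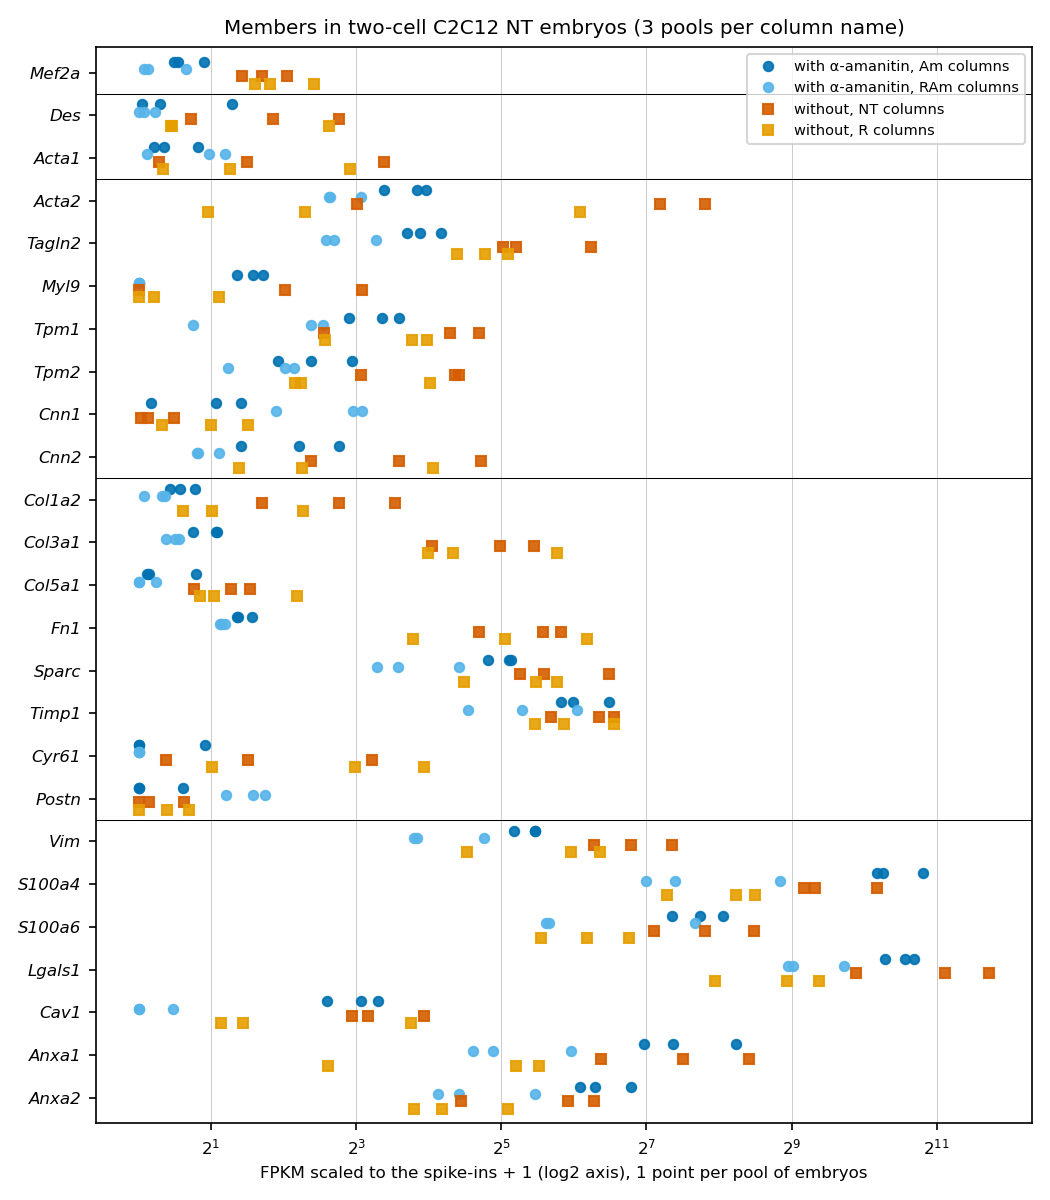
Spike-in-scaled FPKM + 1 on a log2 axis (horizontal) of the 25 tested members in two-cell NT embryos, with 1 point per pool, circles with α-amanitin (Am dark, RAm light) and squares without (NT dark, R light). Col3a1 and Fn1 separate into circles on the left and squares on the right, while the circles and squares of S100a4, S100a6 and Lgals1 intermix.

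**Figure D4:**
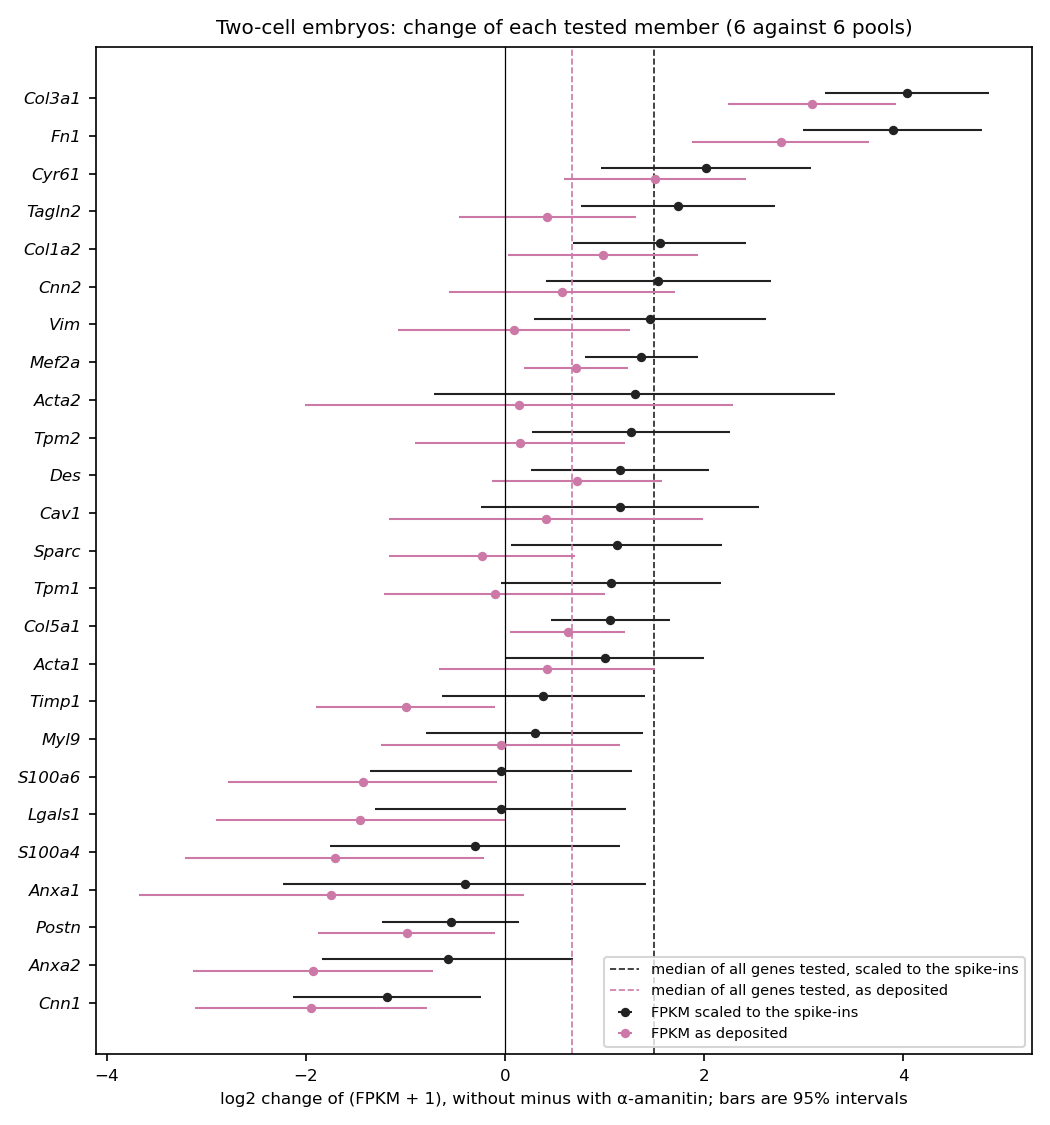
Log2 change of each tested member, without minus with α-amanitin, in two-cell embryos (horizontal axis), with 95% intervals from limma, scaled to the spike-ins (black) and as deposited (pink); dashed lines are the medians of all genes tested, 1.49 and 0.67. Col3a1 and Fn1 lie to the right of both medians, and Cnn1, Anxa2, Postn, Anxa1, S100a4, Lgals1 and S100a6 lie at or below 0.

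In the wider lists, 15 of 30 myoblast genes were tested and 3 were called higher without α-amanitin, and 35 of 43 mesenchymal genes were tested and 7 were called higher, with none lower, against 34.2% and 0.163% of all genes tested. On the FPKM as deposited 1 and 2 were called higher, against 11.1% of all genes. Those with the largest changes were Id3, at 10.34 to 23.17 FPKM without and 0 to 7.109 FPKM with α-amanitin (3.37 ± 0.50, limma adjusted p = 6.58e-05), and Zyx, the focal adhesion protein zyxin, at 1.868 to 13.86 FPKM without and 0 to 0.5967 FPKM with it. Ankrd1, a muscle ankyrin repeat protein, was at 0.7447 to 33.08 FPKM without and 0 to 0.3677 FPKM with it. Like Zyx it passed the filter only through the untreated pools, where both are high. These calls, which are among the 7, therefore carry no independent weight. Itgb5, an integrin chain, changed by 2.55 ± 0.58 (limma adjusted p = 0.00108). Musculin, called in four-cell embryos, was above 0 in 1 two-cell pool.

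The D and DR groups belong to a table on DNA replication. No gene was called between them, member or not, on the spike-in-scaled values (0% of 14570 genes tested; 88 had an unadjusted p below 0.05) or on the FPKM as deposited (0%; 897 had). Of the members, 22 were tested, 16 were above 0 but below the filter, and Myf6 and Pax7 were at 0 in all 6 pools. Only 19 spike-ins were found in every library and the scaling factors ran from 0.09445 to 5.649, so scaled changes carried SE of 1.36 (Col3a1) to 2.41 (Lgals1) and every member's 95% interval included a 4-fold lower level in DR. The levels that follow are the FPKM as deposited.

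The muscle genes were uneven among the D pools. Myog was at 0, 6.905 and 17.36 FPKM in D1, D4 and D5 and reached 0.07865 FPKM in 1 of 3 DR pools. Acta1 was at 136.8 FPKM in D5 and between 1.063 and 2.241 FPKM in the other 5. Actc1, the cardiac α-actin that differentiating myoblasts also use, was at 31.91 FPKM in D5, 0.06444 FPKM in D4 and 0 elsewhere. D5 was thus the highest pool for all 3 genes, D4 was high in Myog only, and D1 lay within the DR range. Mymk and Tnnc1, a myoblast fusion protein and a troponin, were picked here after their values were seen, so they add no weight. They were at 38.35 and 77.6 FPKM in D5, 13.75 and 3.756 FPKM in D4 and 0 and 0.1585 FPKM in D1. In DR1, DR2 and DR3 Mymk was at 0 and Tnnc1 at 0, 1.807 and 0.7378 FPKM. Of the wider myoblast list 15 genes were tested between DR and D and none was called by limma on either scale, with a median change of −0.28 against 0.02 for all genes on the FPKM as deposited. Myod1 was at 0.9754, 2.801 and 1.464 FPKM in D and 2.006, 0.1264 and 1.032 FPKM in DR (as deposited −0.48 ± 0.44, limma adjusted p = 0.846). Myf5 was at 0.7922 and 0.6758 FPKM in D1 and D4 and at 0 in the other 4. Mef2a and Mef2d, at 0.7455 to 3.292 FPKM and 1.179 to 2.999 FPKM over the 6 pools, had limma adjusted p values of 0.788 and 0.991.

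**Figure D5:**
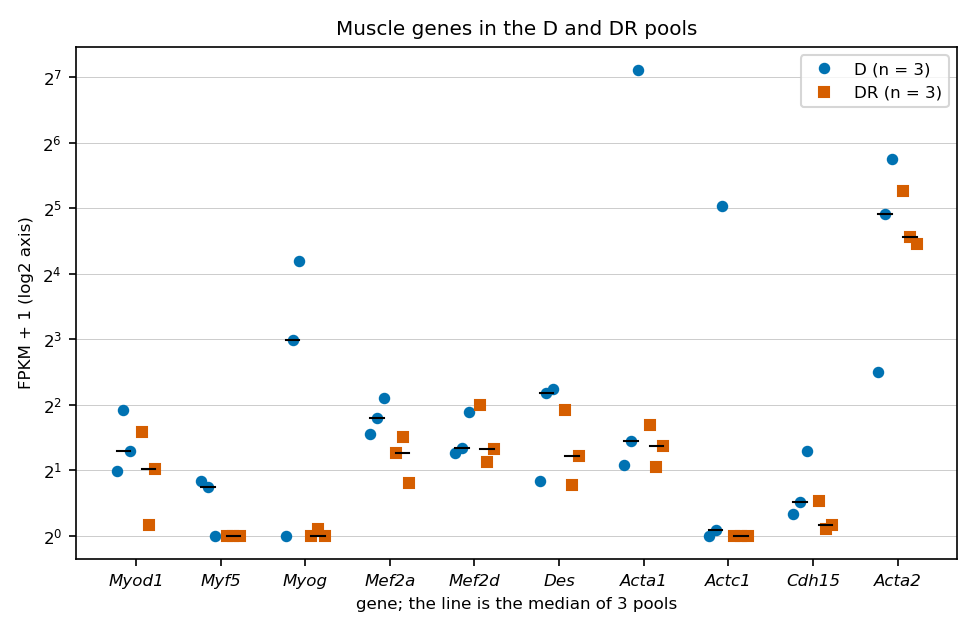
FPKM + 1 on a log2 axis (vertical) of 10 muscle genes (horizontal) in the 3 D pools (circles) and 3 DR pools (squares), as deposited, with a line at each median. Acta1 and Actc1 have 1 high circle, library D5, and Myog has 2 circles above the squares.

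On the FPKM as deposited, Cyr61 and Lgals1 were the members with the lowest p in the D and DR pools, and on the scaled values no member had an unadjusted limma p below 0.05. Cyr61 was at 48.36, 15.38 and 15.22 FPKM in DR and 9.89, 10.56 and 6.109 FPKM in D, so that the groups did not overlap, with an as-deposited change of 1.29 ± 0.48 (unadjusted p = 0.0299, limma adjusted p = 0.788). With spike-in scaling the change of Cyr61 was −0.45 ± 2.19, of the opposite sign. Lgals1 was at 187.9, 212.5 and 147.1 FPKM in DR and 429, 325.2 and 299.4 FPKM in D, with an as-deposited change of −0.94 ± 0.23 (unadjusted p = 0.0044, limma adjusted p = 0.788). Neither passed the correction over all genes. Library DR2 was the highest of the 6 in Col3a1 (8.505 FPKM), Fn1 (11.89 FPKM), Sparc (58.47 FPKM) and Thbs1 (8.248 FPKM), and the other 2 DR pools lay within or below the D range in these 4 genes. S100a4 was at 57.1 to 163.7 FPKM in DR and 37.33 to 195.9 FPKM in D, S100a6 at 65.12 to 94.7 and 79.21 to 101.6 FPKM, and Vim at 4.291 to 18.84 and 4.687 to 24.86 FPKM. The remaining tested members had limma adjusted p values of 0.788 or more on the FPKM as deposited.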

How the data were processed

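Libraries were made by the authors with SMART-seq v4 (polyA-selected, without strand) and Nextera XT and sequenced in pairs, and per the labels reads were trimmed with Trimmomatic, Trim Galore and cutadapt, aligned to mm10 with STAR and counted with featureCounts. The deposited values are FPKM per gene, which the authors computed; whole reads were recovered from the four-cell FPKM only. Columns of the two-cell and four-cell tables were assigned to an α-amanitin arm by name. The replication table holds 4 more columns of values that were not used.

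FPKM were scaled to the ERCC spike-ins (median of ratios) where at least 10 were found in every library, and log2(FPKM + 1) was tested with limma 3.58.1 (trend) in R 4.3.3, two-sided, over genes at 1 FPKM or more in at least 3 libraries, with Benjamini-Hochberg adjustment. The fold changes understate those of low genes. The planned count tests were not run, and limma-voom was run on the recovered four-cell reads instead. The replicates are separate embryo pools, so p-values measure the spread between pools. All 40 members were accounted for by role, and other genes were named where called, up to 4 per direction. Mymk and Tnnc1 were named without being called. The members and lists were chosen with earlier results of these data known. The scripts were tested on simulated data. Bounds against 0 cover counting error only. Numbers shared by two-cell columns did not pair the samples (correlations of deviations from −0.00421 to 0.0784).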

Additional observations from a re-analysis of the deposited data

Results flagged for a closer look

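In the two-cell pools, each of the 25 tested members was searched in both arms for 1 library far from the other 5. The measure was the gap to the nearest library as a share of the whole range, against Dixon's 95% limit. It was passed by 3 members in the pools with α-amanitin and by none in the pools without. Chance alone gives about 1 such group in 20, so over both arms the count is near chance. The share over all genes was not computed. Des lay at 1.29 on the scaled log2 scale in Am1, with the next library at 0.293, a share of 0.773. Col5a1 lay at 0.798 in Am1, with the next at 0.237, a share of 0.704. Cyr61 lay at 0.911 in Am2 and at 0 in the other 5. Its share of 1 would follow from any value above 0 in Am2, so it carries no weight. The effect of α-amanitin on Postn differed between the R and RAm columns and the NT and Am columns, by −1.19 ± 0.449 (SE, interaction in limma, adjusted p = 0.037), as did that of 53.2% of the 17196 genes tested. All 3 RAm pools were above the other 9 for Postn, which passed the filter on low values only through them and drops out of testing without any of the 3, so the test carries no independent weight.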

How the results depend on the processing

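In four-cell embryos the single call among members, Cyr61, became 0 calls and 0 higher members with a pseudocount of 0.1 or with all genes tested (adjusted p = 0.0608 and 0.0742), and leaving out 1 library gave 0 to 2 called, 0 to 2 higher and 0 to 2 lower. Over all genes the 613 called higher became 259 with all genes and 55 to 836 without 1 library. In two-cell embryos, members called numbered 8 with a pseudocount of 0.1 and 8 with the median of ratios over genes (2 higher and 6 lower), and 2 to 4 without 1 library. Members higher numbered 4 as deposited, 3 with the median of ratios and 7 in the NT and Am columns alone, and 8 to 15 without 1 library. Members lower numbered 0 with all genes, 2 as deposited, 8 with the median of ratios, 0 in the NT and Am columns, 2 in the R and RAm columns, and 0 to 1 without 1 library. Genes called higher and lower were 1906 and 272 as deposited, 878 and 769 with the median of ratios, and 10115 higher with a pseudocount of 0.1. The D and DR count stayed at 0 in each alternative run.

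Directions turned as follows, in log2. In four-cell embryos Cav1 was −0.062 with the median of ratios, and Anxa1 0.014 and Timp1 0.073 with voom on recovered reads. Between D and DR, Cyr61 was 1.29 as deposited and 1.24 with the median of ratios. In two-cell embryos the median of ratios gave Tagln2 −0.35, Vim −0.71, Myl9 −0.12, Tpm2 −0.53, Acta1 −0.0031, Tpm1 −0.79, Cnn2 −0.020, Sparc −1.03, Acta2 −0.57 and Timp1 −1.81. As deposited, Myl9 was −0.043, Tpm1 −0.10, Sparc −0.23 and Timp1 −0.998. S100a4 was 0.22 in the R and RAm columns, and S100a6 0.11 and Lgals1 0.42 in the NT and Am columns. Leaving out 1 library gave ranges across 0 in four-cell embryos for Anxa1 (−0.78 to 0.73), Cav1 (−0.68 to 0.94), Lgals1 (−1.38 to 0.97), Myod1 (−0.13 to 0.83), S100a4 (−2.26 to 1.91), S100a6 (−0.76 to 1.67), Timp1 (−1.09 to 0.76) and Vim (−0.35 to 0.27), for Cyr61 between D and DR (−1.99 to 0.86), and in two-cell embryos for Anxa1 (−0.90 to 0.26), Lgals1 (−0.42 to 0.34), Myl9 (−0.11 to 0.53), S100a4 (−0.72 to 0.027) and S100a6 (−0.34 to 0.25). The cause was not tested.

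With a replicate block on the two-cell column numbers, 3 members were called, 11 were higher and 1 was lower, and the numbers did not pair the samples. With the pair of column names as a term, 13 members were higher (Cav1 and Sparc added). No paired analysis of the four-cell, D and DR pools was run. The names of the four-cell columns carry no shared replicate numbers, only S numbers. These are adjacent across the arms (S15 and S16, S17 and S18, S7 and S8). Whether they mark pairs is not on the labels and was not tested. The D and DR columns share 1 number only. The column-set and voom alternatives were chosen after seeing the data, and the edgeR and DESeq2 alternatives were not run.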
